A study of Homo sapiens with 8 samples.

Results

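Intact fibrinogen was compared with buffer in BEAS-2B cells, a human bronchial epithelial line immortalised with viral genes. The 2 FBG libraries (fibrinogen at 4 ng/µl for 4 h) were set against the 2 Mock libraries (PBS for 4 h), 4 of the 8 libraries of the series. All cells were grown in serum-free LHC-9 medium, and the species and source of the fibrinogen are not given in the sources used here. The other 4 libraries, FCP (a Der m 1-derived preparation, Der m 1 being a house dust mite allergen) and aC (the αC domain of fibrinogen), both at 4 ng/µl for 4 h, entered the fit, where they helped to estimate the spread and to decide which genes had enough counts to be tested, and serve below as a reference for levels. The series asks how such exposures change adhesion-related expression. The count files list 50006 entries. The 9382 entries that also have copies on alternate loci were set aside, which left 40624, and 15321 of these passed the filter on low counts and were tested. Of the tested genes 13245 also passed with the FBG and Mock libraries alone, and 2076 passed only with FCP and aC.

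Fibrinogen is a plasma glycoprotein made of Aα, Bβ and γ chains, encoded by FGA, FGB and FGG in a cluster on chromosome 4. Thrombin turns it into fibrin, and plasmin, made from plasminogen by tissue-type (PLAT) and urokinase-type (PLAU) activators, dissolves the clot. Cells bind fibrinogen through integrins such as αVβ3, α5β1 and αMβ2, through ICAM1 and through Toll-like receptor 4, and these receptors signal to the cytoskeleton, to growth control and to inflammatory genes. The liver makes most fibrinogen, and lung epithelial cells can make chains of it under inflammatory stimulation.

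Total counts were 16553366 and 16561302 in Mock and 15137196 and 15144403 in FBG, so 3 counts in a library correspond to about 0.18 and 0.20 CPM, the unit of counts scaled to library size that is used for levels below. The counts of a replicate pair differed by 1.26 times the counting variance in Mock and 1.39 times in FBG. Whether the replicates came from separate cultures is not detailed in the labels, so each p-value sets a difference against library-to-library spread, which may be no more than technical. The marker check was mixed: KRT8 and KRT18, keratins of simple epithelia, and KRT7 were abundant (KRT8 at 508 and 505 CPM in Mock and 438 and 428 in FBG), but TP63, the basal cell factor, had 1, 1, 1 and 3 counts in the 4 libraries, the secretory marker SCGB1A1 had 0 in all 4, and E-cadherin (CDH1) at 5.04 and 4.03 CPM in Mock lay far below N-cadherin (CDH2) at 186 and 184. Among 26 blood and immune cell markers without copies, 16 to 20 were at 0 in each library, with PTPRC set aside and haemoglobin genes at 0, and their summed level was 28.7 to 34.4 CPM in Mock and 21.5 to 24.3 in FBG. The 12 endothelial markers summed to 27 to 55 counts per library.

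The FCP and aC libraries stood apart from Mock and FBG. The 50 genes that were highest in them relative to Mock and FBG, such as the keratin gene KRT5 and the cyclin gene CCND2, stood in FBG at a median of 3.06% and 2.53% of their FCP and aC level, and in Mock at 1.76% and 2.08%. Of these 50 genes 30 rose and 6 fell in FBG against Mock, while 26.2% of all tested genes rose and 28.3% fell. The 50 were picked for their level in FCP and aC, and some, such as ITGB6, passed the filter only with those libraries. Genes of low level leaned the same way: in the lowest of 10 bins of mean level 9.53% rose and 1.37% fell. CCND2 had only 2 and 1 counts in Mock and 8 and 12 in FBG (0.13 and 0.07 CPM against 0.54 and 0.82). KRT5 was measured at 2.29 and 1.81 CPM in Mock and 7.01 and 7.68 in FBG, against 1608 in FCP and 1624 in aC. Its log2 fold change of 1.84 ± 1.70 (SE) was not called in the fit of all 8 libraries (edgeR adjusted p = 0.432), while a fit of the 4 libraries alone gave 1.85 with an adjusted p of 1.43e-11. What these transcripts contribute to the other results was not tested, and levels in FCP and aC are given below where they bear on a gene.

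Expression differed between FBG and Mock at many genes, mostly by small amounts. In edgeR's quasi-likelihood test, 8347 of 15321 genes (54.5%) had a Benjamini-Hochberg adjusted p under 0.05, which is what called, rose and fell mean below. Of these 4017 rose (26.2%) and 4330 fell (28.3%). The median size among called genes was 0.51 on the log2 scale for risen and 0.34 for fallen genes. At least 2-fold changes were fewer, with 837 genes risen (5.46%) and 235 fallen (1.53%), and 364 of the 837 had a mean under 1 CPM. Of these 2-fold calls, 177 risen and 33 fallen genes were tested only because of their counts in FCP and aC. The split depends on scaling: with library size alone in place of TMM factors, 5268 rose and 3071 fell, and the median over all genes moved from 0.02 to 0.13. All fold changes below are log2 values, FBG minus Mock, with n = 2 against 2.

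PHACTR3 and FGG led the risen genes. PHACTR3, which encodes a regulator of protein phosphatase 1 and actin (chromosome 20, 59577509 to 59847711), was measured at 2.02 and 2.01 CPM in Mock and 59.3 and 58.6 in FBG. Its fold change was 4.86 ± 0.19, about 29.1-fold (edgeR adjusted p = 1.71e-85). Both FBG libraries lay far above both Mock libraries, and PHACTR3 was also above Mock in FCP (21.4 CPM) and aC (19.9 CPM).

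FGG, the gene of the fibrinogen γ chain (chromosome 4, 154604136 to 154612656), had 61 and 76 counts in Mock and 518 and 513 in FBG. In CPM this was 4.10 and 5.10 against 35.2 and 34.9, a rise of 2.93 ± 0.13 or about 7.61-fold (edgeR adjusted p = 2.56e-52). FGB, the gene of the β chain (chromosome 4, 154562980 to 154572807), rose by 1.26 ± 0.26, from 30 and 21 counts to 55 and 66 (edgeR adjusted p = 1.21e-05). FGA, the gene of the α chain, had 0 counts in all 4 libraries, which allows up to 3 counts in each. So cells given fibrinogen protein had more FGG and FGB transcript, with no FGA transcript detectable at this depth. Per kilobase of exon, FGG stood at 2.18 CPM in Mock and 16.6 in FBG, and FGB at 0.47 and 1.12. In FCP and aC, FGG was near 0 (means of 0 and 0.06 CPM), and so was FGB (0.13 and 0.15).

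FGG and FGB are acute-phase genes, and in liver cells interleukin-6 acts on them through elements with the core letters CTGGGAA. These letters were searched on both strands of the RefSeq promoter windows of GRCh38.p14, which run from 250 bases before to 50 bases after a start. They stood in 3809 of 35116 windows (10.8%), and in 3 of the 4 windows of the fibrinogen chain genes, those of FGG and FGB. The 2 FGB windows overlap and hold the same site, so the letters stood at 2 sites, in 2 of the 3 genes. The bases before the start are shown for both genes 5′ to 3′ because they are the pair that rose, with the core in capitals (FGG at chr4:154612657-154612906, minus strand, and the upstream of the 2 FGB starts at chr4:154562730-154562979, plus strand).
FGG: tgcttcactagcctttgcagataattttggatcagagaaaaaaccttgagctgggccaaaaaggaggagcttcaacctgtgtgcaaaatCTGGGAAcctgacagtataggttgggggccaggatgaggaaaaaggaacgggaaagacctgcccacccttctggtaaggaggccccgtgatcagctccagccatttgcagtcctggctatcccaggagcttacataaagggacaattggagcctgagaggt
FGB: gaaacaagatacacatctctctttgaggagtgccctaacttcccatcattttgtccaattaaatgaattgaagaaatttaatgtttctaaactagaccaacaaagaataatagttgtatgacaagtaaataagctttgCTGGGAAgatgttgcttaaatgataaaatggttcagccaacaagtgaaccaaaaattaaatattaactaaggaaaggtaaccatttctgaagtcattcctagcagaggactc
The core starts 161 bases before the FGG start and 112 bases before this FGB start. A match of letters is a description of the sequence and not evidence of binding. Interleukin-6 itself (IL6) was low, at 1.48 and 1.68 CPM in Mock and 0.61 and 1.22 in FBG, with a fall of 0.78 ± 0.35 whose call ended in 7 of the 12 other settings that gave it a value, among them without FBG replicate 1 (-0.37), Mock replicate 1 (-0.87) or Mock replicate 2 (-0.69). SOCS3, a feedback inhibitor of that pathway named here after its values were seen, fell by 1.06, from 15.4 and 14 CPM to 7.55 and 6.53. The receptor subunit gene IL6ST rose by 0.63 ± 0.03, from 115 and 119 CPM to 181 and 180, and by 0.16 once smooth trends of the counts with transcript GC content and length were removed, the fit that "with the trends removed" refers to below.

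The other leading risen genes, ranked by fold change where the mean reached 10 CPM, were of 2 kinds. ANKRD1, a muscle ankyrin repeat protein gene and target of YAP (12.4 and 12.2 CPM in Mock, 63.1 and 70.1 in FBG), rose by 2.44 ± 0.08, and the long non-coding PLCE1-AS1, which cannot be told from its sense partner without strand, by 2.39 ± 0.12. Like PHACTR3 and FGG, both were lower in FCP and aC than in FBG, ANKRD1 at 3.11 and 4.46 CPM. The remaining 8 were the DNA repair gene BRCA2 (2.11 ± 0.07), N4BP2, the Wnt regulator and microtubule binder APC (2.06 ± 0.06), the Golgi tether GOLGB1 (1.96 ± 0.06), the kinetochore scaffold KNL1 (1.94 ± 0.06), the ciliary motor DYNC2H1, the phospholipase gene PLCB4 and the endosome tether EEA1. These 8 were higher in FCP and aC than in FBG, BRCA2 at 110 and 135 CPM against 67.7 and 66.0 in the FBG libraries. These 8 with PHACTR3, FGG, ANKRD1 and PLCE1-AS1 are the 12 leading risen genes, and all 12 kept their call and direction in each of the 13 other settings.

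Among the leading fallen genes, lipid metabolism and the cell surface were represented. POSTN, the gene of the matricellular integrin ligand periostin, was measured at 33.1 and 31.5 CPM in Mock and 5.31 and 5.71 in FBG, and fell by 2.55 ± 0.12 (edgeR adjusted p = 5.42e-45). The monoacylglycerol lipase gene MGLL fell by 2.07 ± 0.06 and the fatty acid synthase gene FASN by 1.82 ± 0.01. No Mock library overlapped an FBG library for these 3 genes, as for 11484 of all 15321 tested genes. The others were the glycoprotein genes CD24 (-1.86 ± 0.06), CDCP1 (-1.81 ± 0.11) and LY6K (-2.05 ± 0.12), SHISAL1, the non-coding LINC00707 (129 and 130 CPM to 33.0 and 33.3), TP53I11 and the junction protein gene KAZN. All those named here likewise kept call and direction in each other setting.

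**Figure D1:**
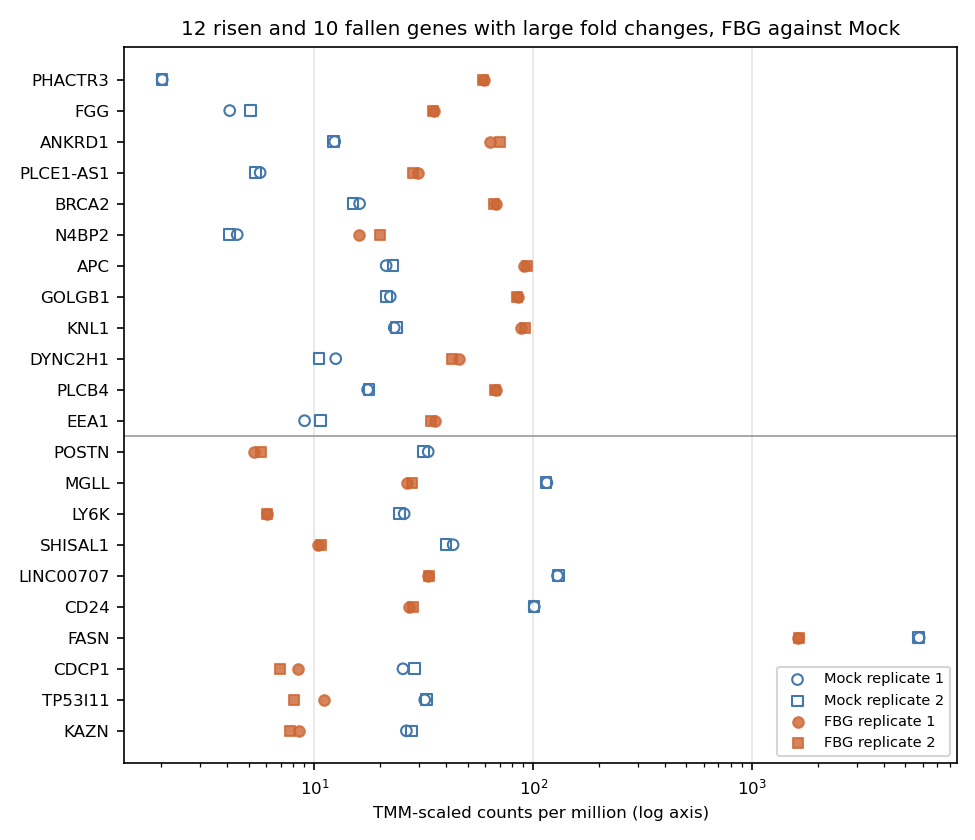
TMM-scaled CPM on a log axis for 12 risen and 10 fallen genes among those with the largest fold changes, with 1 point for each of the 2 Mock (open) and 2 FBG (filled) libraries. The libraries of a pair sit close together and the groups do not overlap for any of the 22 genes, with PHACTR3 at 2.02 and 2.01 CPM in Mock against 59.3 and 58.6 in FBG and FASN at 5775 and 5743 against 1617 and 1638. These genes were picked for large fold changes, and the groups did not overlap for 11484 of all 15321 tested genes.

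Receptors that bind fibrinogen moved in both directions. Of 15 genes on that list, 12 were tested, and 7 rose and 2 fell, with a median of 0.10 against 0.02 for all tested genes. A risen gene, ITGB6, and a fallen one, CDH5, passed the filter only with FCP and aC, which leaves 6 risen and 1 fallen of 10. ITGB3, the β3 subunit, was measured at 26.6 and 27.2 CPM in Mock and 75 and 74.1 in FBG, a rise of 1.47 ± 0.06 (edgeR adjusted p = 9.89e-51) that was 1.57 with the trends removed. Its partner ITGAV, the αV subunit, rose by 0.44 ± 0.04, from 83.7 and 75.8 CPM to 108 and 108, but stood at 0.08 and was not called with the trends removed. In FCP and aC, ITGB3 stood at 10.3 and 12 CPM, below both Mock libraries.

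ITGB2, the leukocyte β2 subunit, rose from 10 and 13 counts to 39 and 40 (1.79 ± 0.34), while its partner genes ITGAM and ITGAX had at most 1 count in any of the 4 libraries. ITGB6, the epithelial β6 subunit, had 1 and 1 counts in Mock and 13 and 4 in FBG, and stood at 64.3 CPM in FCP and 85.4 in aC. For the fibronectin receptor, ITGA5 fell by 0.38 ± 0.04 (-0.21 with the trends removed) and ITGB1 was nearly level at 0.06 ± 0.01, a call that turned to -0.19 with the trends removed. TLR4 likewise went from 0.24 ± 0.04 to -0.21. ICAM1 rose by 0.14 ± 0.03, from 185 and 191 CPM to 206 and 207, and by 0.30 with the trends removed. ITGA2B, ITGB5 and ITGB8 were not called, CDH5 had 4 and 1 counts in Mock and 0 in FBG, and the median of the list was -0.06 with the trends removed.

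Of the 11 other integrin subunits tested 4 rose and 4 fell, with a median of -0.03 that turned to 0.15 with the trends removed and to 0.08 with library size alone. ITGA7, an α subunit of a laminin receptor, fell by 1.18 ± 0.10 and ITGA3, another, by 0.65 ± 0.01, from 1440 and 1431 CPM to 921 and 914. The collagen receptor subunit genes ITGA1 (1.06 ± 0.10, and 0.64 with the trends removed) and ITGA11 (0.39 ± 0.03) rose. ITGA2, also of a collagen receptor, rose by 0.48 ± 0.15, a call lost without Mock replicate 2 (0.33) and with the trends removed (0.19). ITGB4, which pairs with α6 in hemidesmosomes, was at -0.03 ± 0.10 and not called.

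Among genes of coagulation and fibrinolysis, both plasminogen activators and the inhibitor gene SERPINE2 fell and tissue factor rose. Of 34 genes 26 were tested, and 9 rose and 12 fell (median -0.12, and 0.01 where the mean count reached 50). A fallen gene, SERPINB2 (7 and 6 counts in Mock, 1 and 2 in FBG), passed the filter only with FCP and aC, and the median of the other 25 was -0.035. PLAT, tissue plasminogen activator, was measured at 130 and 125 CPM in Mock and 47.5 and 48.9 in FBG, a fall of 1.40 ± 0.05 (edgeR adjusted p = 2.73e-66). PLAU fell by 0.86 ± 0.08, from 28.0 and 29.7 CPM to 15.3 and 16.5. SERPINE2, an inhibitor of both, fell by 1.28 ± 0.07, from 53.1 and 47.8 CPM to 21.6 and 19.8. ANXA2 and S100A10, which form a plasminogen-binding complex at the cell surface, fell by 0.54 ± 0.01 and 0.41 ± 0.03, S100A10 by 0.24 with the trends removed. The urokinase receptor gene PLAUR fell by 0.37 ± 0.14, a call lost without FBG replicate 1 (-0.17), without Mock replicate 1 (-0.21) and with the trends removed (-0.21).

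On the clotting side, F3, tissue factor, rose by 0.48 ± 0.04, from 93.7 and 93.5 CPM to 132 and 129, and its inhibitor gene TFPI fell by 0.46 ± 0.05. With the trends removed TFPI stood at -0.91. Its relative TFPI2 rose by 0.27 ± 0.04, but was at 0.01 and not called with the trends removed. The endothelial protein C receptor gene PROCR fell by 1.04 ± 0.05. TGM2, a transglutaminase that can cross-link fibrinogen, rose by 0.56 ± 0.01, from 807 and 805 CPM to 1186 and 1192. Thrombin and protease receptor genes differed: F2RL1 (114 and 166 counts in Mock, 237 and 245 in FBG) rose by 0.80 ± 0.12, F2RL3 rose from 9 and 5 counts to 32 and 38, F2R rose by 0.23 ± 0.08 (0.16 and not called with the trends removed), and F2RL2 fell from 24 and 12 counts to 12 and 5, where 1 library of each group had the same number. Plasminogen (PLG) and coagulation factors V and XIII A (F5, F13A1) had 0 counts.

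**Figure D2:**
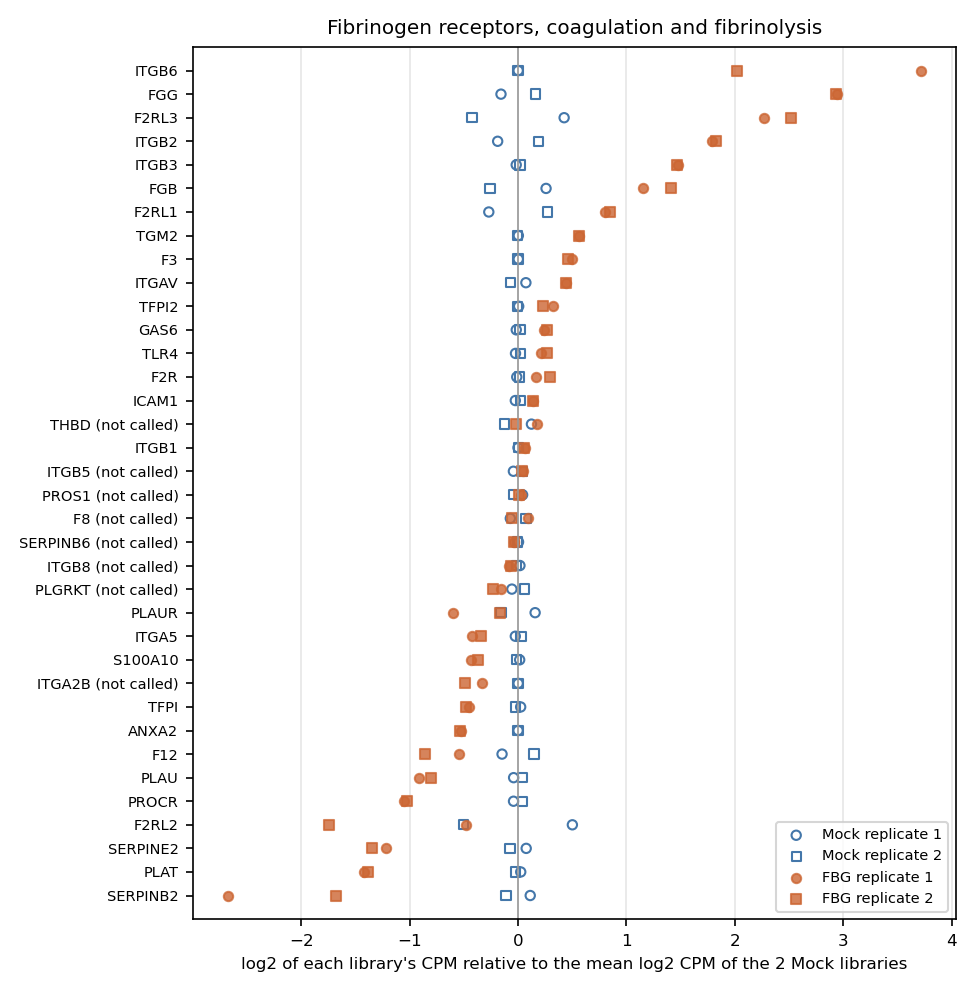
The log2 CPM of each library relative to the mean log2 CPM of the 2 Mock libraries, for 36 genes of the fibrinogen receptor and the coagulation and fibrinolysis lists with a count in all 4 libraries, in order of fold change. ITGB6, FGG, F2RL3, ITGB2 and ITGB3 sit at the upper end and SERPINB2, PLAT and SERPINE2 at the lower end, and most genes marked as not called lie near 0, with ITGA2B lower.

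Lipid synthesis genes were lower in FBG. Cells make cholesterol and fatty acids under the control of the transcription factors SREBF1 and SREBF2, which are held back by INSIG1 and released by SCAP when sterols are scarce. Of 29 tested genes of cholesterol synthesis and uptake 24 fell and 2 rose, with a median of -0.44 that was -0.43 with the trends removed, where 25 fell and 0 rose. SREBF1 was measured at 267 and 268 CPM in Mock and 101 and 100 in FBG, a fall of 1.41 ± 0.03 (edgeR adjusted p = 4.68e-87). INSIG1 fell by 1.09 ± 0.04, from 178 and 182 CPM to 83.3 and 85.1.

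Enzymes of the pathway fell by varied amounts. HMGCS1, an early enzyme, fell by 0.27 ± 0.02, and by 0.51 with the trends removed. MVD, FDPS and DHCR7 fell by 0.75 ± 0.04, 0.73 ± 0.03 and 0.73 ± 0.03, and IDI1, SQLE, CYP51A1 and EBP by 0.21 to 0.33. SC5D, of the last steps, stood at 0.05 ± 0.06 and was not called. MYLIP, whose product marks lipoprotein receptors for degradation, fell by 0.97 ± 0.09, and the sterol exporter genes ABCA1 and ABCG1, targets of a sterol-activated receptor, fell by 0.89 ± 0.16 and 1.88 ± 0.45. INSIG2 and STARD4 rose, by 0.35 ± 0.11 and 0.25 ± 0.04, and with the trends removed INSIG2 was not called and STARD4 fell (-0.24).

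Fatty acid genes shared the direction at the synthetic end of the pathway. Of 22 tested, 12 fell and 4 rose (median -0.34, and -0.31 with the trends removed). FASN went from 5775 and 5743 CPM in Mock to 1617 and 1638 in FBG, 1 of the largest changes among abundant genes. SCD, the stearoyl-CoA desaturase, fell by 1.05 ± 0.02, from 3666 and 3594 CPM to 1755 and 1752, and ACSS2, which makes acetyl-CoA from acetate, by 1.12 ± 0.03. The citrate lyase gene ACLY fell by 0.73 ± 0.01 and the desaturase genes FADS1, FADS2 and FADS3 by 0.38 to 0.83, FADS3 by 0.52 ± 0.04 and by 0.30 with the trends removed. The 4 that rose were the acyl-CoA synthetase genes ACSL1 (0.54 ± 0.03) and ACSL4 (0.14 ± 0.03), GPAM, which starts glycerolipid synthesis, and TMEM97. With the trends removed 1 rose and 15 fell: ACSL1 kept its call (0.50), ACSL4 fell (-0.22), and GPAM (0.01) and TMEM97 (0.05) were not called. In FCP and aC, FASN stood at 2707 and 2721 CPM, between the 2 groups.

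Sterol response was also looked for in sequence. The letters TCACNCCAC, a form of the sterol regulatory element, were searched on both strands of the same promoter windows and stood in 396 of 35116 (1.13%). Of 31 windows of 25 genes of the cholesterol list 1 held them, that of SREBF2, which fell by 0.52 ± 0.02, from 463 and 460 CPM to 325 and 317. Its 250 bases before the start (chr22:41832855-41833104, plus strand) are shown because SREBF2 is the regulator of the falling list, with the element in capitals.
SREBF2: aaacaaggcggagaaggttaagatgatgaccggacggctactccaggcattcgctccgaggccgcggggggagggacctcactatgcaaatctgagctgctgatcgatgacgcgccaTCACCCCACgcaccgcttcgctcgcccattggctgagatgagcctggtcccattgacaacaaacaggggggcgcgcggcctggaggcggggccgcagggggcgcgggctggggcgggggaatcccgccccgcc
It starts 133 bases before the start. The windows are short and the letters strict, so a window without them says only that these letters are not in it.

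**Figure D3:**
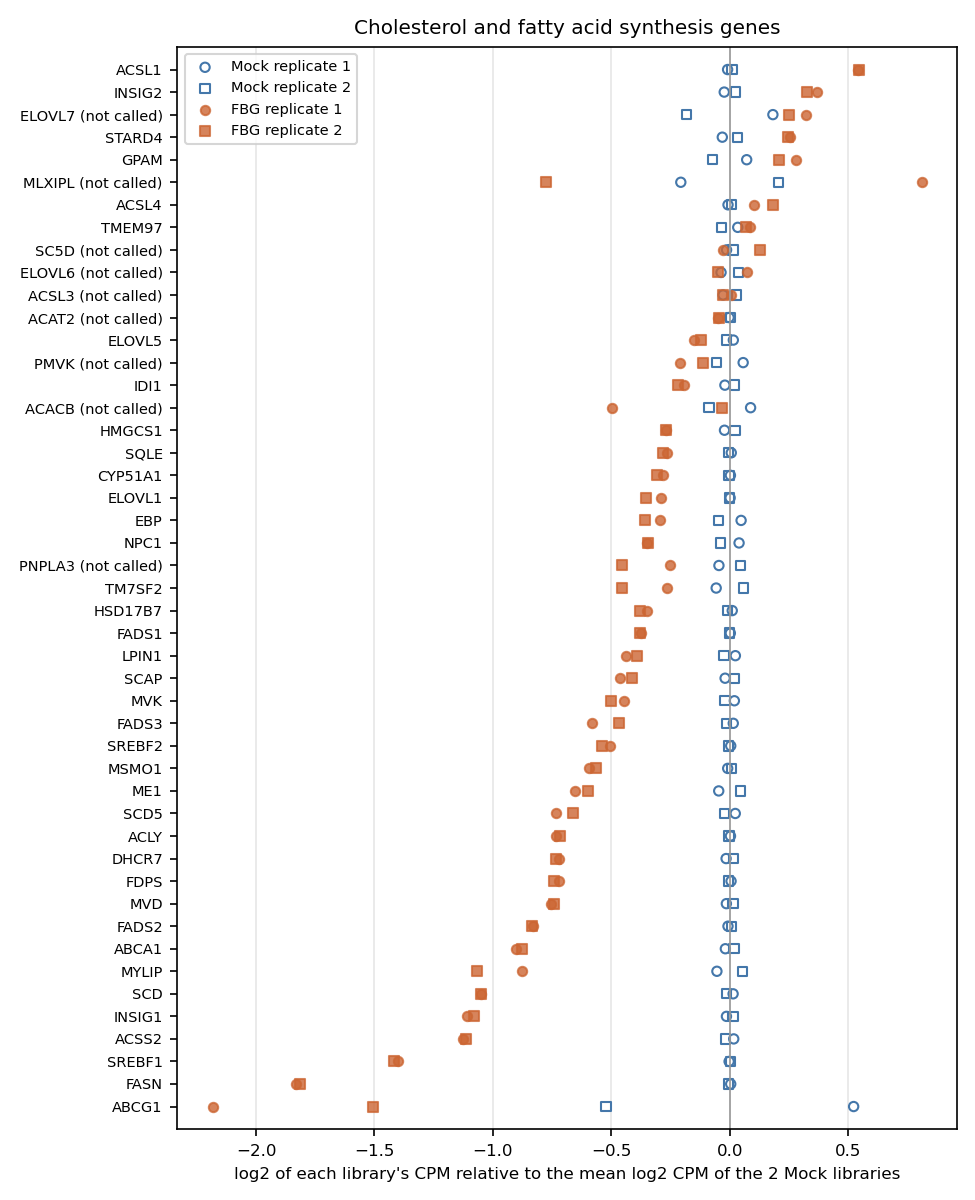
The log2 CPM of each library relative to the mean log2 CPM of the 2 Mock libraries for 47 genes of cholesterol and fatty acid synthesis, in order of fold change. Most FBG points lie left of 0 and apart from both Mock points, from ABCG1 and FASN at the far left to ACSL1 at the right, and the genes marked as not called lie near 0 or scatter.

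Genes of sugar and nucleotide metabolism fell along with lipid synthesis. Of 34 tested glycolysis and hypoxia genes 26 fell and 3 rose (median -0.38, and -0.32 with the trends removed), against 28.3% fallen and 26.2% risen of all tested genes. ALDOA, the muscle-type aldolase, was measured at 53.7 and 56.4 CPM in Mock and 30.3 and 29.6 in FBG (-0.88 ± 0.06), and PFKM, a phosphofructokinase, fell by 0.79 ± 0.04. The pentose phosphate and nucleotide synthesis list had 22 fallen and 1 risen of 27 (median -0.26). TKT, a transketolase, fell by 0.88 ± 0.02 and the purine synthesis gene PFAS by 0.67 ± 0.03. Abundant genes also tended to fall, 67.1% of them in the highest of 10 bins of mean level. How far level accounts for the falls of these lists and of the lipid lists was not tested.

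Ribosomal, respiratory chain and proteasome genes fell by small amounts and in large numbers. Abundant genes in general leaned the same way. In bins 9 and 10 of 10 bins by mean level (from 79.6 CPM) 51.8% and 67.1% of genes fell, with medians of -0.10 and -0.17. How far level accounts for the falls of these lists was not tested. Of 71 cytosolic ribosomal protein genes 66 fell and 1 rose (median -0.28), such as RPL28 by 0.50 ± 0.02, from 649 and 633 CPM to 448 and 456. Many of them have pseudogene relatives that can share reads, which makes each single value uncertain. Of 67 nuclear-encoded respiratory chain genes 52 fell and 4 rose (median -0.28), with SDHA at -0.58 ± 0.02, and of 33 proteasome subunit genes 20 fell and 7 rose (median -0.12). Messenger RNAs of the mitochondrial genome were split, 9 fallen and 4 risen of 13, COX1 at -0.25 ± 0.01 and ND1 at 0.18 ± 0.02. Translation factors had 25 fallen and 13 risen of 42, where the elongation factor gene EEF2 fell by 0.53 ± 0.01 (-0.34 with the trends removed) and the large initiation factor genes EIF5B and EIF3A rose by 1.02 ± 0.03 and 0.68 ± 0.02.

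Matrix genes fell in number, with sharp exceptions. Of 29 tested collagens and their cross-linking enzymes 15 fell and 11 rose (median -0.33, and -0.16 where the mean count reached 50). COL1A1 and COL1A2, the chains of type I collagen, fell by 0.98 ± 0.01 and 1.06 ± 0.09, COL1A1 from 2161 and 2184 CPM to 1097 and 1101. The lysyl oxidase genes LOXL1 and LOXL2 fell by 1.17 ± 0.06 and 1.01 ± 0.03. Among 44 matrix glycoproteins and proteoglycans 22 fell and 13 rose (median -0.12). NID2, a basement membrane nidogen, went the other way, from 18.2 and 17.9 CPM to 63.1 and 60.9 (1.78 ± 0.08). THBS2 fell by 1.66 ± 0.04 and the tenascin gene TNC by 1.68 ± 0.18, from 9.62 and 8.73 CPM to 3.27 and 2.45. TNC stood at 205 CPM in FCP and 378 in aC.

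Fibronectin and thrombospondin 1, abundant fibrinogen partners, changed little. FN1 was measured at 8177 and 8161 CPM in Mock and 7687 and 7739 in FBG (-0.08 ± 0.004), and turned to 0.03 with library size alone. THBS1 rose by 0.18 ± 0.01 (0.10 with the trends removed), from 1937 and 1959 CPM to 2187 and 2214. Metalloproteinases and their inhibitors had 10 fallen and 4 risen of 27 (51.9% called, near the 54.5% of all genes). TIMP1, an inhibitor, fell by 1.04 ± 0.03, from 363 and 363 CPM to 175 and 177, and the gelatinase gene MMP2 rose by 0.75 ± 0.12.

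Adhesion and junction genes showed no common direction. In the focal adhesion and integrin signalling list 18 rose and 24 fell of 48 (median -0.07, 0.04 with library size alone). The cytoskeletal kinase genes ROCK1 and ROCK2 rose by 1.07 ± 0.04 and 1.21 ± 0.04, ROCK2 from 50.2 and 53.9 CPM to 123 and 118, and the tensin gene TNS4 by 1.22 ± 0.14, while talin (TLN1) and focal adhesion kinase (PTK2) fell by 0.32 ± 0.01 and 0.39 ± 0.03. Other adhesion receptors and proteoglycans mostly fell, 18 of 31 with 9 risen (median -0.29). CD44, the hyaluronan receptor, which also binds fibrin, went from 247 and 253 CPM to 107 and 106 (-1.23 ± 0.03). Adherens junction and cadherin genes had 11 risen and 10 fallen of 26, with a median at 0, 0.11 with library size alone and -0.14 with the trends removed. CDH1 rose by 1.00 ± 0.15, from 5.04 and 4.03 CPM to 8.23 and 9.93, and CDH2 fell by 0.15 ± 0.03, a call lost with library size alone (-0.04). CDH1 and TNS4 belong to the 50 genes high in FCP and aC, of which 30 rose and 6 fell. In FCP and aC, CDH1 stood at 254 and 258 CPM and TNS4 at 647 and 656. Desmosome and hemidesmosome genes had 8 risen and 4 fallen of 18 (median 0.16), DST among them at 1.42 ± 0.05 (0.91 with the trends removed) and DSP at 0.75 ± 0.04, and tight junction genes 6 risen and 7 fallen of 18, where CLDN11 fell by 0.72 ± 0.03.

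Inflammatory genes fell more often than they rose. Of 44 tested cytokines and NF-kB targets 15 fell and 4 rose (median -0.23). The share called was 43.2%, below the 54.5% of all tested genes, of which 28.3% fell and 26.2% rose. CCL2, the monocyte chemokine, was measured at 15.5 and 14.4 CPM in Mock and 1.43 and 1.16 in FBG, a fall of 3.53 ± 0.24 (edgeR adjusted p = 1.14e-41). CXCL8 fell by 0.54 ± 0.11, from 15.5 and 12.9 CPM to 9.86 and 9.59, and by 1.04 with the trends removed. The NF-kB subunit gene RELB fell by 1.04 ± 0.16 and the cofactor gene BCL3 by 0.99 ± 0.09, while the subunit gene REL rose by 0.86 ± 0.10, or 0.42 with the trends removed. Of the 44 genes 8 passed the filter only with FCP and aC, and without them 3 rose and 15 fell. Interferon-stimulated genes had 15 fallen and 8 risen of 36 (median -0.22, and -0.05 without Mock replicate 1), with IFITM1 at -1.04 ± 0.07 and OAS3 at -0.86 ± 0.04 against SAMD9 at 1.66 ± 0.13. Innate sensors and adaptors had 7 risen and 8 fallen of 25 (median 0.06, and -0.06 with the trends removed).

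Growth signalling genes also fell more often than they rose. Of 39 immediate early genes and MAPK feedback inhibitors 20 fell and 4 rose (median -0.16, and -0.06 with the trends removed). MYC went from 249 and 252 CPM to 96.4 and 103 (-1.33 ± 0.03), EGR1 from 954 and 922 to 546 and 568 (-0.75 ± 0.02) and FOSL1 fell by 0.90 ± 0.04. KLF2, a flow-responsive factor in endothelium, rose by 1.48 ± 0.18, from 2.82 and 3.90 CPM to 8.98 and 9.79. Of 41 growth factor receptor and ligand genes 22 fell and 9 rose (median -0.27). IGFBP2 and IGFBP4, binders of insulin-like growth factors, fell by 1.55 ± 0.03 and 0.84 ± 0.01, IGFBP2 from 405 and 409 CPM to 138 and 140.

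Targets of YAP and TEAD, of serum response factor and of TGF-beta did not move as groups. In the YAP and TEAD list 12 rose and 12 fell of 26 (median -0.02, 0.09 with library size alone), with ANKRD1 at the top, CCN2 at 0.38 ± 0.01 and CCN1 at -0.26 ± 0.01. Contractile genes had 10 risen and 13 fallen of 31 (median -0.01, 0.10 with library size alone), the caldesmon gene CALD1 at 0.79 ± 0.03, tropomyosin TPM1 at 0.61 ± 0.02 and the calponin gene CNN3 at -0.63 ± 0.02. In the TGF-beta and BMP list 11 rose and 8 fell of 33 (median 0.04), and the 57.6% called was near the 54.5% of all tested genes. TGFB2 rose by 1.14 ± 0.08, from 19.8 and 18.9 CPM to 43.3 and 42.4, while TGFB1 fell by 0.65 ± 0.04 and SMAD3 by 0.73 ± 0.05.

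Centrosome genes mostly rose. In the centrosome and centriole list 35 of 45 tested genes rose and 6 fell, with a median of 0.71, the highest of all lists. PCM1, the pericentriolar scaffold, was measured at 63.8 and 63.5 CPM in Mock and 177 and 174 in FBG (1.47 ± 0.04, edgeR adjusted p = 1.90e-79), and CEP290, a ciliary gate protein gene, rose from 9.41 and 8.53 CPM to 26 and 28.3. With GC content and length trends removed the list had 31 risen and 8 fallen and a median of 0.53, with PCM1 at 1.14.

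Mitosis, DNA repair and Golgi tether lists also had more risen than fallen genes, by less with the trends removed. Mitosis and kinetochore genes had 30 risen and 21 fallen of 52 (median 0.28), and 23 risen and 22 fallen with the trends removed (median 0.07). The kinetochore motor gene CENPE rose by 1.51 ± 0.06 (0.99 with the trends removed) and the spindle gene ASPM by 1.63 ± 0.04, from 45.7 and 48.8 CPM to 148 and 144. DNA damage response genes had 29 risen and 11 fallen of 52 (median 0.26), and 23 risen and 15 fallen with the trends removed (median 0.08). REV3L rose by 1.57 ± 0.09 and ATRX by 1.52 ± 0.06, ATRX by 1.01 with the trends removed. DNA replication genes went the other way in number, 11 risen and 23 fallen of 49 (median -0.07, 0.04 with library size alone), with CCND1, cyclin D1, at 0.61 ± 0.04 and POLD1 at -0.63 ± 0.03 (-0.42 with the trends removed). Golgins and vesicle tethers had 22 risen and 9 fallen of 40 (median 0.24), and 19 risen and 11 fallen with the trends removed (median 0.10), while coat proteins of the same traffic had 9 risen and 26 fallen of 45 (median -0.15).

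Some other lists of large proteins moved closer to 0 with the trends removed. Giant cytoskeletal linkers had 13 risen and 7 fallen of 26 (median 0.20), with SYNE2 at 1.61 ± 0.05 and the dystrophin gene DMD at 1.47 ± 0.07, but a median of -0.01 with the trends removed. Giant ubiquitin ligases went from 23 risen and 10 fallen of 34 (median 0.21) to 12 risen and 14 fallen (median 0.01). Numbered zinc finger genes, mostly transcriptional repressors, had 222 risen and 58 fallen of 453 (median 0.30), and 173 risen and 43 fallen with the trends removed (median 0.19). Chromatin regulators were even, 40 risen and 43 fallen of 96 (median 0.03, and -0.03 with the trends removed), although CHD9 and BAZ2B rose by 1.70 ± 0.08 and 1.64 ± 0.12. In the nuclear pore list 9 rose and 20 fell of 38 (median -0.10, 0.01 with library size alone), splicing factors had 25 risen and 34 fallen of 67 (median -0.05, 0.06 with library size alone) and kinesins and dyneins 13 risen and 10 fallen of 31. The medians of the nuclear pore and splicing lists did not move closer to 0 with the trends removed (-0.12 and -0.053).

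Fold changes followed the composition of transcripts. Among 13860 tested genes with a GC value, taken from the longest basic GENCODE transcript, Spearman's correlation across genes was -0.43 with GC content and 0.16 with length, and -0.62 and 0.30 for the 8884 whose mean reached 10 CPM. Genes share these libraries and are not independent replicates. Between the 2 libraries of a group the same correlation with GC content was -0.03 in Mock and -0.02 in FBG. In the lowest of 10 GC bins (up to 38.6%) the median fold change was 0.40, 65.1% rose and 4.55% fell, and in the highest (from 61.6%) the median was -0.25, 7.07% rose and 51.8% fell. By length, the median went from -0.06 in the shortest bin to 0.19 in the longest. Whether the trend comes from the treatment or from how the libraries were made cannot be told apart, as 1 pair of libraries stands on each side.

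With smooth trends in GC content and length removed from the counts of each library, 7083 of 13860 genes were called (51.1%), 2922 risen (21.1%) and 4161 fallen (30%). Of the genes with a value in both fits, 2440 rose and 3230 fell in both, 230 went from risen to fallen and 29 from fallen to risen. At least 2-fold changes were 526 risen and 202 fallen. The 24 leading genes all kept their call and direction, BRCA2 for example at 1.55 and PHACTR3 at 4.95.

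**Figure D4:**
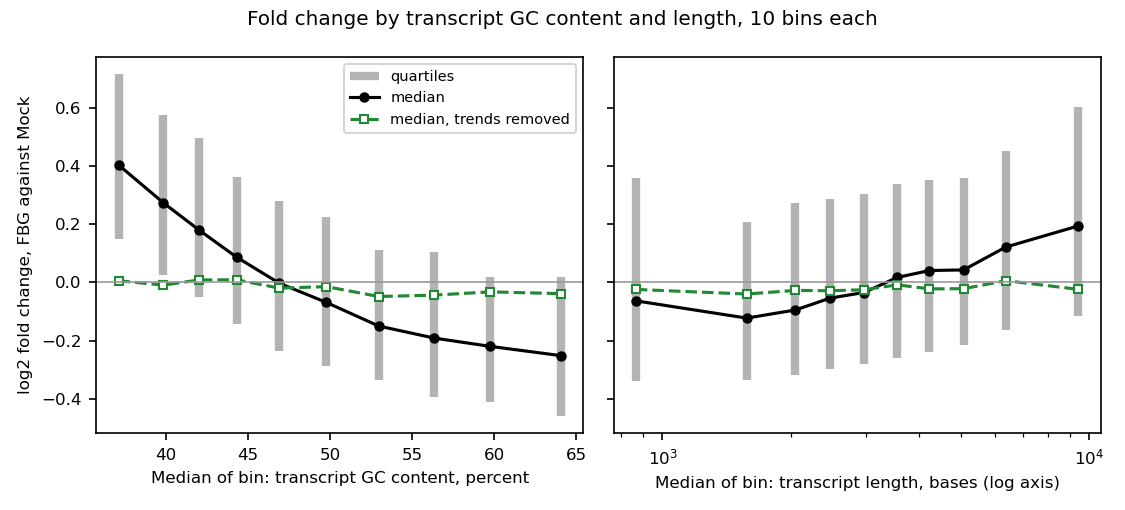
Median log2 fold change, FBG against Mock, in 10 bins of transcript GC content (left) and of transcript length on a log axis (right), with grey bars from the lower to the upper quartile. The medians before removal fall from 0.40 to -0.25 along GC content and rise from -0.06 to 0.19 along length, and the medians with trends removed (open squares) stay near 0.

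Stress response genes moved in both directions. Of 30 NRF2, ferritin and metal response genes 20 fell and 6 rose (median -0.25, and -0.33 with the trends removed). The metallothionein genes MT2A and MT1X fell by 0.95 ± 0.01 and 0.97 ± 0.03, MT2A from 2354 and 2331 CPM to 1205 and 1216, while HMOX1, haem oxygenase, rose by 0.56 ± 0.12 and the cystine transporter gene SLC7A11 by 0.99 ± 0.06 (0.46 with the trends removed). Endoplasmic reticulum folding genes had 20 risen and 10 fallen of 39 (median 0.09), and 15 risen and 14 fallen with the trends removed (median 0.03). HSPA5 rose by 0.15 ± 0.01 and DNAJC3 by 0.92 ± 0.05. Heat shock chaperones had 8 risen and 15 fallen of 27 (median -0.12). In the amino acid response and one-carbon list 21 fell and 4 rose of 33 (median -0.24, and -0.11 with the trends removed), and neither DDIT3 (0.24 ± 0.15, edgeR adjusted p = 0.158) nor ASNS (-0.25 ± 0.15, adjusted p = 0.166) was called, though DDIT3 was with library size alone (0.35) and ASNS without Mock replicate 1 (-0.44). Targets of p53 had 8 risen and 7 fallen of 26, and the 57.7% called was near the 54.5% of all tested genes. Of all tested genes 26.2% rose and 28.3% fell. Glucocorticoid targets had 4 risen and 6 fallen of 14 (71.4% called).

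Single epithelial and mesenchymal markers moved both ways. Of 36 tested airway epithelial and keratin genes 10 rose and 7 fell (47.2% called against 54.5% of all tested genes, median 0.14, and 0.03 without FBG replicate 2). Of these 36, 12 passed the filter only with FCP and aC, among them GRHL2 (0 and 0 counts in Mock, 9 and 3 in FBG) and SLPI (0 and 1 against 5 and 2), which count as risen, and without the 12 there were 8 risen and 7 fallen of 24. GRHL2 had 471 and 519 counts in FCP and 469 and 548 in aC. The summed level of the marker list was 2626 and 2636 CPM in Mock and 2969 and 2945 in FBG. KRT7 rose by 0.29 ± 0.05 (0.52 with the trends removed), from 1195 and 1187 CPM to 1460 and 1452, MUC1 rose by 1.25 ± 0.15 and KRT14 fell from 35 and 33 counts to 1 and 7. Mesenchymal and fibroblast markers had 12 fallen and 3 risen of 23 (median -0.23), their sum being 1875 in both Mock libraries and 1647 and 1650 in FBG, with VIM at -0.23 ± 0.01 (-0.10 with the trends removed) and THY1 at -0.82 ± 0.04. In bulk RNA, fewer cells of a kind and less transcript per cell cannot be told apart. S100 proteins, annexins and galectins had 14 fallen and 3 risen of 20 (median -0.28), with ANXA3 the exception at 1.20 ± 0.04. Of 18 tested replication-dependent histone genes 3 fell and 0 rose (16.7% called against 54.5% of all tested genes), and 9 of the 18 passed the filter only with FCP and aC.

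Non-coding transcripts were risen more often than fallen, though most were not called. Of 2188 tested long non-coding RNA genes 362 rose and 73 fell, against 3518 and 4220 of 12474 protein-coding genes. Of all tested genes 26.2% rose and 28.3% fell. Long non-coding RNAs were low, with 0.636% and 0.635% of counts in Mock and 0.715% and 0.711% in FBG. Genes of low level leaned the same way, with 9.53% risen and 1.37% fallen in the lowest of 10 bins of mean level. How far level accounts for the rises was not tested. MALAT1 and NEAT1, nuclear non-coding RNAs, were low in all 4 libraries, at 2.56 and 1.41 CPM in Mock and 3.67 and 4.08 in FBG for MALAT1. Their rises (0.97 ± 0.23 and 0.60 ± 0.18) were not called without Mock replicate 2 (0.59 and 0.46), and NEAT1 not with the trends removed (0.20). TUG1 rose by 0.64 ± 0.03 and ZFAS1, a snoRNA host gene, by 0.57 ± 0.03, from 124 and 127 CPM to 190 and 181. Mitochondrial ribosomal RNA took 0.269% and 0.27% of counts in Mock and 0.470% and 0.465% in FBG.

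**Figure D5:**
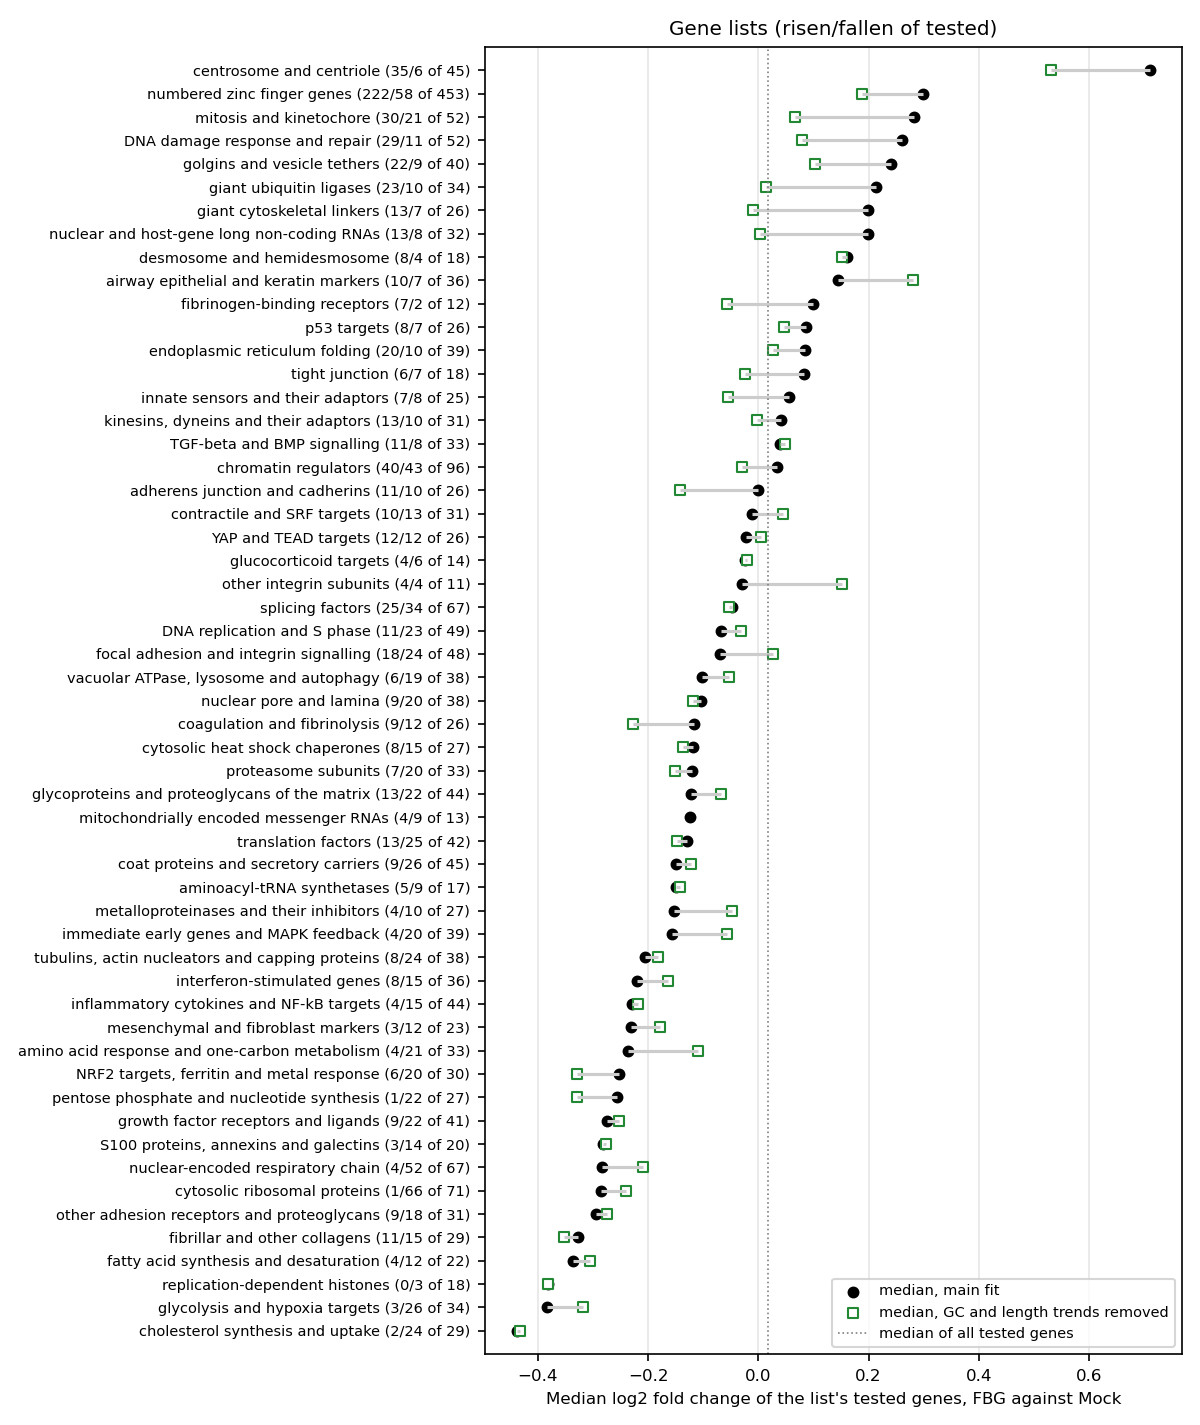
Median log2 fold change of 55 gene lists with at least 11 tested genes, before (filled) and after (open squares) removal of GC content and length trends, with risen and fallen genes of those tested in brackets and the median of all tested genes as a dotted line. Centrosome genes (0.71) stand at the top and cholesterol genes (-0.44) at the bottom in both fits, while lists such as giant ubiquitin ligases move to near 0 when the trends are removed.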

How the data were processed

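For each library the authors deposited unnormalised counts, 1 number a gene, from featureCounts 1.6.0 in paired-end mode over exons, without strand or multi-mapping options, per the file headers. The submitters' processing notes also name Trimmomatic 0.39, HISAT2 2.2.1 and SAMtools 1.9, featureCounts as 1.6.2, and the build GRCh38.p14. Messenger RNA was enriched and primed at random, per the labels' protocols. Groups and replicate numbers come from the sample titles. Counts were tested with edgeR 4.0.16 (filterByExpr, TMM, robust quasi-likelihood, Benjamini-Hochberg) in R 4.3.3, 1 fit over all 8 libraries with 4 residual degrees of freedom. The printed SE is the larger of the model's error (from the F statistic) and the counting error. GC content and length trends were fitted with mgcv 1.9.3 and entered as offsets. On simulated data for FBG against Mock with 15264 genes tested, 53% of genes changed by 0.5, 92.5% by 1 and 100% by 2 (log2) were recovered, and 1 unchanged gene was called. The simulation changed only 66 or 67 genes of each size and held no trend with GC content, length or level. Its spread was set above the common coefficient of variation of 0.01 fitted to the data. These figures therefore do not give the recovery or the false calls among the 8347 calls. DESeq2 1.42.0 was an alternative. Depth is the total count per library.

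Named genes were the 12 risen and 12 fallen with the largest fold change among called genes with a mean of at least 10 CPM, up to 4 called genes per list with a mean of at least 5 CPM, the first 6 genes high in FCP and aC, and 48 set anchor genes. Some genes that the rule picks are not reported here. Other list members are named beside them to describe the lists on fibrinogen, coagulation, integrins and lipids. The members and the 57 lists were chosen with earlier results of these data known. Replicate numbers did not pair the samples, so the main fit has no block. Settings tried were DESeq2 size factors, library size only, no filter, a mean of at least 50 counts, DESeq2's Wald test, the 4 libraries alone, a replicate block, trends removed, copies kept, and each library left out. Counting limits use 3 counts per library.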

Additional observations from a re-analysis of the deposited data

How the results depend on the processing

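The number of called genes (8347) stayed within 1.5 times of the main count in all 13 settings, from 6584 with DESeq2's Wald test to 8371 with DESeq2 size factors. Genes risen at least 2-fold (837) numbered 323 with a mean of at least 50 counts, 553 by DESeq2 and 526 with trends removed, and those fallen at least 2-fold (235) numbered 88 with a mean of at least 50 counts. Leaving out 1 library gave 7443 to 7544 called, 775 to 803 risen and 239 to 271 fallen at least 2-fold. With the replicate block 8314 genes were called. Equal replicate numbers did not deviate together (correlation of deviations -0.06 over 11276 genes), so the block does not test a weaker effect, and no named gene changed its call under it. Of 270 named genes, 258 had a value in all 13 settings and 239 of these kept direction and call in each, and of the 12 with a value in fewer settings 10 kept them where they had one.

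Medians of lists near 0 changed sign. With library size only they were 0.083 for other integrins, 0.043 for focal adhesion, 0.11 for adherens junctions, 0.089 for YAP and TEAD targets, 0.10 for contractile genes, 0.088 for glucocorticoid targets, 0.0092 for lysosome genes, 0.0076 for nuclear pore genes, 0.044 for S phase genes and 0.065 for splicing factors. FN1 stood at 0.029 there. With trends removed they were -0.057 for fibrinogen receptors, 0.15 for other integrins, -0.024 for tight junctions, -0.056 for innate sensors and -0.0090 for giant linkers, with TLR4 at -0.21 and ITGB1 at -0.19. Tight junctions stood at -0.037 and coagulation genes at 0.0094 with a mean of at least 50 counts, and tight junctions at -0.023 with the 4 libraries alone. The 4 tested blood and immune markers (median -0.74) stood at -0.71 without Mock replicate 2 and at 0.0090 without FBG replicate 2, with 5 then tested. With the 4 libraries alone 2 of these markers were tested, with a median of -0.79. The causes were not tested. Depth limits genes under 1 CPM, where 3 counts allow about 0.18 CPM in Mock and 0.20 in FBG.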
